A study of Homo sapiens with 9 samples.

Results

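The 38 genes described here encode the machinery that carries newly made proteins and lipoproteins between the endoplasmic reticulum (ER) and the Golgi. They were chosen by gene name from the 58735 genes of the deposited tables for their function. They fall into 15 genes of the COPII coat and its assembly, 13 cargo receptors, 2 SNAREs and 8 subunits of the COPI coat. RNA sequencing was performed on 9 libraries in 3 groups of 3. The control was the human hepatoma line Huh-7 with its wild-type genotype. Ako-3 is a Huh-7 clone in which the APOB gene was disrupted, and Mko-3 is a Huh-7 clone in which the MTTP gene was disrupted. All groups grew in DMEM with 10% fetal bovine serum and were kept overnight in medium without serum before RNA isolation. Each knockout was 1 clone, so that the loss of the gene and other properties of the clone cannot be told apart. The replicates are described as biological replicates, and the p-values measure the spread between these libraries only.

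APOB encodes apolipoprotein B, the structural protein of VLDL and LDL, and MTTP encodes the microsomal triglyceride transfer protein, which loads lipid onto it in the ER. Proteins leave the ER in carriers formed by the COPII coat: the GTPase SAR1, switched on by PREB at sites organised by SEC16, recruits the inner coat of SEC23 and SEC24, and SEC13 with SEC31 forms the outer cage. SEC24 and membrane-spanning cargo receptors select what is packed, SNAREs fuse the carriers with their target membrane, and the COPI coat returns receptors and escaped ER proteins from the Golgi. Hepatocytes secrete large amounts of albumin, clotting factors and lipoproteins by this route.

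The libraries held 14638727 to 20179760 counts each. Mitochondrial genes took 7.28 ± 0.19% of the counts in Ako-3 (SD, n = 3), 5.78 ± 0.34% in control and 5.80 ± 0.036% in Mko-3 cells. APOB differed between Ako-3 and control cells by a log2 fold change of -1.36 (edgeR adjusted p = 7.1e-05), and MTTP differed between Mko-3 and control cells by -2.88 (edgeR adjusted p = 9.4e-19), in the direction of the labels. MTTP was also lower in Ako-3 cells, at -0.16 (edgeR adjusted p = 0.039). How this call held under other settings was not summarised. By qRT-PCR the paper found MTTP mRNA in Ako cells to be similar to that of Huh-7 cells. The hepatocyte genes ALB and AFP had group means from 1833 to 2595 FPKM and from 1050.2 to 1840.2 FPKM. Of 8 markers of blood, endothelial, stromal and bile duct cells, KRT7 was listed at 0 in each group, PTPRC, DCN, LUM, PDGFRB and CDH5 had group means of at most 1.06 FPKM, PECAM1 ranged from 6.53 to 13.4 and SOX9 from 64.5 to 88.0 FPKM. Fewer cells of a type and less RNA per cell cannot be told apart in such bulk RNA.

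Most of this machinery was well expressed in control cells. Levels of different genes are given as FPKM, counts scaled to the length of the gene and the size of the library. KDELR1 and KDELR2, receptors that return ER proteins, were highest at 131 ± 4.12 and 129 ± 2.95 FPKM (SD, n = 3), and overlapped. The median over the cargo receptors was 45.4 FPKM, over the COPI subunits 48.4 FPKM and over the COPII genes 13.0 FPKM, beside 7.32 FPKM over the 10763 protein-coding genes above 1 FPKM. In the COPI coat the lowest gene was COPG2 at 8.79 ± 0.477 FPKM and the highest was COPE at 65.6 ± 4.96 FPKM. Among the COPII genes SEC13 was highest at 45.0 ± 2.66 FPKM, and the SNAREs BET1 and SEC22B stood at 6.20 ± 0.262 and 9.91 ± 0.575 FPKM. ERGIC2 was the lowest cargo receptor at 3.10 ± 0.386 FPKM. SEC16B, a paralog of the scaffold SEC16A, had 3 to 11 counts per library and was the 1 member that did not pass the filter on low counts.

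The question asked of each knockout was how far the machinery differed from control cells. Genes were tested with edgeR over all genes that passed a filter on low counts, at an adjusted p (Benjamini-Hochberg) of at most 0.05. None of the 37 tested members also reached an absolute log2 fold change of 1, in any comparison, with edgeR or with DESeq2. Among all genes 8.52% did so in Ako-3 and 11.0% in Mko-3 cells against control, and 5.73% between the knockouts. The shares with higher expression were 3.52%, 3.82% and 2.26%, and with lower expression 5.0%, 7.22% and 3.47%, in the same order. The changes of the members are therefore described at the adjusted p alone.

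In Ako-3 cells 11 members were higher, 14 were lower and 12 did not pass the test. The 25 that passed are 67.6% of those tested, beside 49.9% of all genes, of which 25.5% were higher and 24.4% lower. This excess depended on the libraries used. Without Ako-3 replicate 2, 7 were higher and 9 lower of 38 tested, beside 3549 higher and 3306 lower of 16221 genes. Without Ako-3 replicate 3, 9 were higher and 8 lower of 38, beside 3410 higher and 3156 lower of 16252 genes. In Mko-3 cells 10 members were higher, 11 were lower and 16 did not pass. This is 56.8% of those tested, close to the 54.0% among all genes, with 26.9% higher and 27.1% lower. Over the tested members the median log2 fold change was -0.028 in Ako-3 and -0.046 in Mko-3 cells, beside -0.0087 and -0.011 over all genes, and members lay on both sides of it. The split between higher and lower members depends on the scaling: with total counts in place of TMM factors it was 6 to 16 in Ako-3 and 8 to 16 in Mko-3 cells, where the median of all genes stood at -0.10 and -0.078. With upper quartile factors the splits were 7 and 15, and 8 and 16. With mitochondrial genes left out, the Ako-3 split was 11 and 13.

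Both knockouts were compared with the same 3 control libraries, so their values are given side by side and are not independent. Members that passed as higher in both were SEC16A, SEC23B, SEC24C, SAR1A, PREB, LMAN2, ERGIC2, ERGIC3, TMED2 and TMED9. Those that passed as lower in both were SEC24A, SEC24B, SEC24D, MIA2, LMAN1, BET1, COPA, COPB1 and COPZ1. No member passed in opposite directions. SEC23A, SEC31A, KDELR3, TMED3, TMED10 and ARCN1 passed in Ako-3 cells alone and SEC13 and KDELR2 in Mko-3 cells alone. MIA3, TFG, MCFD2, KDELR1, ERGIC1, SEC22B, COPB2, COPE, COPG1 and COPG2 passed in neither. A pass in 1 knockout alone does not show a difference between the knockouts, which was tested directly and is given after the account of each coat.

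The calls were not equally firm. The test was repeated under 17 alternatives in each comparison, 6 of which left out a library each. In every one of them SEC16A, SEC24C, SAR1A, PREB and ERGIC2 passed as higher and SEC24A, SEC24D, MIA2, LMAN1, COPA and COPB1 as lower in both knockouts, which makes 11 members. In Ako-3 cells 13 members passed in all alternatives, the other two being KDELR3 and ERGIC3, and in Mko-3 cells 18 did. Single libraries ended calls mainly in the comparison of Ako-3 with control. The libraries that agreed least with each other were those of the control, which both knockouts share. Between pairs of libraries the chi-square of their counts per degree of freedom was 6.927 to 8.878 in control. It was 3.116 to 3.446 in Ako-3 and 2.435 to 2.836 in Mko-3 cells. Without Ako-3 replicate 2 the calls of ARCN1, COPZ1, SEC23A, SEC23B, SEC31A, TMED10, TMED2, TMED3 and TMED9 were lost (edgeR adjusted p from 0.067 to 0.14), which left 7 higher and 9 lower. Without Ako-3 replicate 3 the calls of ARCN1, BET1, COPZ1, SEC23A, SEC23B, SEC31A, TMED3 and TMED9 were lost (edgeR adjusted p from 0.051 to 0.2), which left 9 higher and 8 lower. Without Ako-3 replicate 1, COPZ1, SEC23A, SEC23B, TMED10 and TMED2 were lost (edgeR adjusted p from 0.09 to 0.17). Without control replicate 3, COPZ1, SEC23A, SEC23B, SEC24B, SEC31A and TMED9 were lost in Ako-3 cells (edgeR adjusted p from 0.056 to 0.074), without control replicate 1 COPZ1 and SEC23B, and without control replicate 2 ARCN1 and SEC23A. In Mko-3 cells the calls of SEC24B, ERGIC3 and TMED9 were the ones that a single library could end, in 4, 3 and 1 of the 6 cases.

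**Figure D1:**
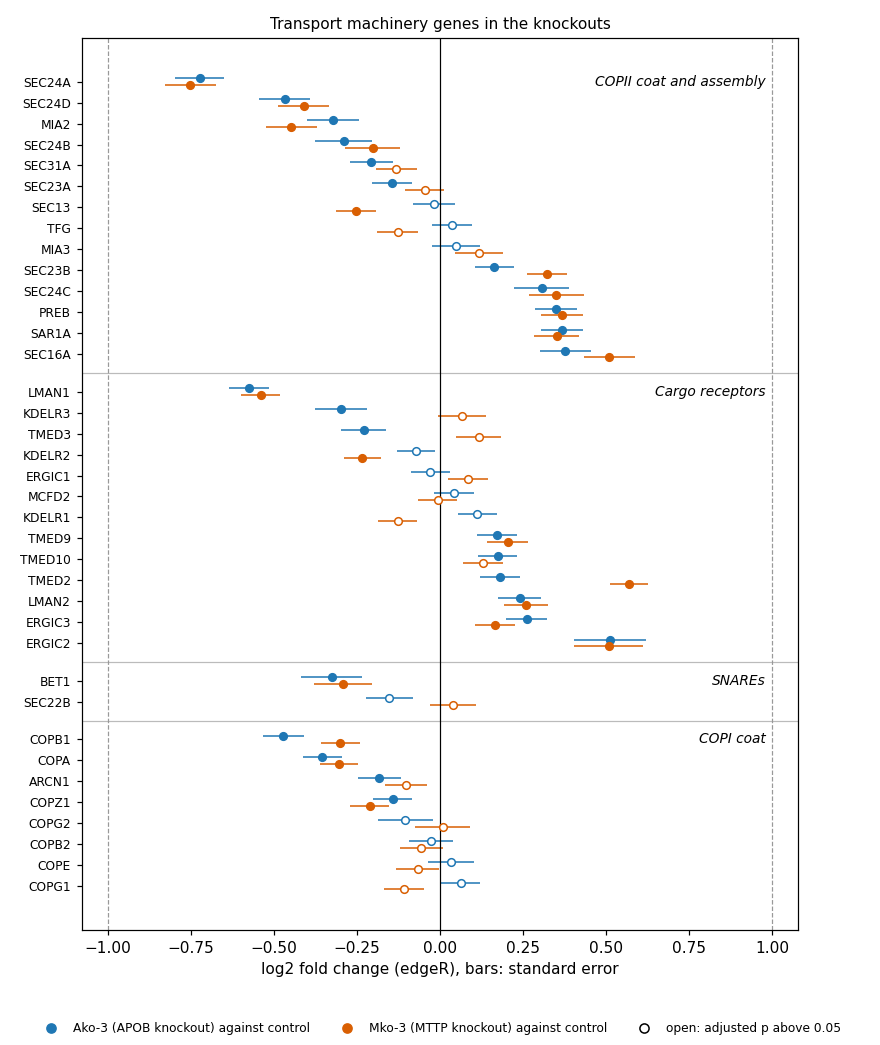
Log2 fold change (x axis) of the 37 tested genes in Ako-3 (blue) and Mko-3 cells (orange) against control, with standard errors as bars and open points where the adjusted p was above 0.05. COPII genes lie on both sides of 0, cargo receptors lie on both sides with ERGIC2 and TMED2 farthest to the right, and no filled COPI point lies to the right of 0. The dashed lines mark a log2 fold change of 1 in either direction, which no gene reached.

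Genes of this pathway are known targets of the unfolded protein response. The paper measured ATF4, ATF6, BiP and XBP1 mRNA of this response by qRT-PCR. It found no significant difference between Ako and Huh-7 cells, with or without oleic acid. The promoter windows of the members in RefSeq, from 250 bases before to 50 bases after each start on GRCh38.p14, were searched on both strands for the motifs of this response. For 33 of the 38 members a window was at hand. SEC24D, MIA2, KDELR2, ERGIC1 and TMED9 were not searched. The unfolded protein response element TGACGTGG, read by XBP1 and ATF6, was found in 8 of the 33 members (24.2%), beside 0.927% of the 27305 genes in the table and 1.19% of the 10927 tested genes in it. The ER stress element, a CCAAT box spaced from a CCACG, was in none of the 33 (0.0916% of all genes), nor was the cAMP response element TGACGTCA (2.25% of all genes). The 9 places follow, written 5′ to 3′ on the strand of the gene, with 11 bases on each side and the match in capitals. They are shown because the members that hold the element include SEC24A, COPA and COPB1, which were lower in both knockouts, as well as SEC16A, which was higher. Annotation was read for the 30 printed bases, and the place of the element itself within it was not determined. The printed COPA, COPB1, SEC16B and SEC23A stretches and the first COPB2 stretch overlap a UTR of the gene itself in GENCODE release 44. The SEC24A stretch overlaps a UTR of SAR1B, the neighbour on the opposite strand. The SEC16A stretch overlaps the gene C9orf163, the second COPB2 stretch overlaps COPB2-DT, and that release has no gene at the KDELR3 stretch. In the deposited gene coordinates KDELR3 starts at 38468062, within its stretch. The start used for SEC16A, 136484740, lies outside the deposited gene, which begins at 136483759 on the minus strand. The start used for SEC23A, 39103235, lies inside the deposited gene, which begins at 39109646 on the minus strand.
COPA, minus strand, chr1:160343227-160343256: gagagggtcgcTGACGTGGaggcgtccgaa
COPB1, minus strand, chr11:14499841-14499870: cccacccccttCCACGTCAgccaaggactc
COPB2, minus strand, chr3:139389632-139389661: tcccggaagttCCACGTCAgtcagtctgac
COPB2, minus strand, chr3:139389825-139389854: gctcagcggcaCCACGTCAcggcccttagt
KDELR3, plus strand, chr22:38468039-38468068: ggccgccctggCCACGTCAccgcccggcca
SEC16A, minus strand, chr9:136484707-136484736: tggccctggtgCCACGTCAgccggactgaa
SEC16B, minus strand, chr1:177984297-177984326: ttctgggcagcTGACGTGGcaacacagttt
SEC23A, minus strand, chr14:39103221-39103250: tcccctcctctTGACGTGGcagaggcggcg
SEC24A, plus strand, chr5:134648595-134648624: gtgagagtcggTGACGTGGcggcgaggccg

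These 8 genes did not move together. SEC24A, COPA and COPB1 fell in both knockouts, SEC16A rose in both, KDELR3 and SEC23A passed as lower in Ako-3 cells alone, COPB2 passed in neither and SEC16B was not tested. A match of letters is a description of the window and not a measured binding site.

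In the COPII group 5 of the 14 tested members passed as higher and 6 as lower in Ako-3 cells, and 5 in each direction in Mko-3 cells, which is 78.6% and 71.4% beside 49.9% and 54.0% of all genes. The Ako-3 share depended on the libraries used, as SEC23A, SEC23B and SEC31A were lost without Ako-3 replicate 2 and also without Ako-3 replicate 3. The share among genes of like expression level was not determined. SEC16A, the scaffold of ER exit sites, stood at 150.1, 192 and 156 CPM (counts scaled to the size of the library, with no allowance for gene length) in the 3 control libraries, at 217, 209 and 222 in Ako-3 and at 233, 234 and 247 in Mko-3 cells. All knockout libraries were above all control libraries, and the second control library was nearer to them than the others. The log2 fold change was 0.38 ± 0.077 (SE) in Ako-3 (edgeR adjusted p = 0.00046) and 0.51 ± 0.077 in Mko-3 cells (edgeR adjusted p = 1.4e-05). SEC16A made up at least 99.5% of the summed SEC16 FPKM in every library, so this was also the change of the SEC16 pair, from 16.5 ± 2.29 FPKM (SD, n = 3) in control to 21.5 ± 0.699 in Ako-3 and 23.7 ± 0.84 in Mko-3 cells.

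SAR1A encodes one of the 2 SAR1 GTPases, and its expression was 83.0, 85.7 and 86.6 CPM in control, 111, 113 and 108 CPM in Ako-3 and 102, 115 and 111 CPM in Mko-3 cells. PREB, the membrane protein that loads SAR1 with GTP, was 102, 99.7 and 94.0 CPM in control, 128, 124 and 127 CPM in Ako-3 and 131, 125 and 128 CPM in Mko-3 cells. For both genes every knockout library was above every control library, while the knockouts overlapped each other. SAR1A rose by 29.1% in Ako-3 (log2 fold change 0.37 ± 0.064, adjusted p = 7.3e-05 by edgeR) and 27.6% in Mko-3 cells (0.35 ± 0.067, adjusted p = 0.00015). PREB rose by 27.4% in Ako-3 (0.35 ± 0.064, adjusted p = 0.00012 by edgeR) and 29.1% in Mko-3 cells (0.37 ± 0.064, adjusted p = 4.9e-05).

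SEC23A and SEC23B are the paralogs of the protein that activates the SAR1 GTPase. SEC23B stood at 167, 174 and 165 CPM in control, 195, 189 and 186 CPM in Ako-3 and 205, 217 and 216 CPM in Mko-3 cells, a log2 fold change of 0.16 ± 0.06, adjusted p = 0.028 in Ako-3 and 0.32 ± 0.06, adjusted p = 0.0001 in Mko-3 cells by edgeR. The 3 groups did not overlap, with Mko-3 highest. SEC23A stood at 289, 311 and 295 CPM in control, 278, 274 and 263 CPM in Ako-3 and 291, 298 and 286 CPM in Mko-3 cells. It was lower in Ako-3 cells at the edge of the threshold (-0.15 ± 0.059, adjusted p = 0.048 by edgeR) and did not pass in Mko-3 cells (-0.046 ± 0.058, adjusted p = 0.52). The Ako-3 calls held in 6 of the 17 alternatives for SEC23A and in 9 of the 17 alternatives for SEC23B.

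The 4 SEC24 paralogs, which bind the export signals of different cargo, moved in different directions. SEC24A showed the largest fall of any member in both knockouts. It stood at 87.4, 102 and 94.6 CPM in control, 59.9, 57.7 and 55.2 CPM in Ako-3 and 58.1, 59.7 and 51.9 CPM in Mko-3 cells, so that the highest knockout library was well under the lowest control library. The fall was 39.5% in Ako-3 (log2 fold change -0.72 ± 0.074, adjusted p = 9.6e-08 by edgeR) and 40.6% in Mko-3 cells (-0.75 ± 0.077, adjusted p = 4.8e-08), and it passed in all 17 alternatives of each comparison. SEC24D, the paralog nearest to SEC24C, stood at 59.7, 70.7 and 65.8 CPM in control, 47.2, 47.4 and 47.8 CPM in Ako-3 and 49.1, 51.4 and 48.0 CPM in Mko-3 cells and fell by 27.7% and 24.8% (edgeR adjusted p = 3.9e-05 and 0.00013).

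SEC24C moved the other way. It stood at 57.1, 73.5 and 60.3 CPM in control, 81.0, 78.7 and 77.2 CPM in Ako-3 and 80.0, 81.2 and 83.6 CPM in Mko-3 cells, and the second control library was again the one nearest to the knockouts. The rise was 23.7% in Ako-3 (log2 fold change 0.31 ± 0.083, adjusted p = 0.0042 by edgeR) and 27.5% in Mko-3 cells (0.35 ± 0.082, adjusted p = 0.0011). SEC24B, the paralog nearest to SEC24A, was 43.7, 44.9 and 52.1 CPM in control, 41.2, 37.6 and 37.2 CPM in Ako-3 and 39.4, 41.5 and 42.6 CPM in Mko-3 cells and fell less (log2 fold change -0.29 ± 0.085, adjusted p = 0.0076 in Ako-3 and -0.20 ± 0.083, adjusted p = 0.044 in Mko-3 cells by edgeR). In Mko-3 cells the fall of SEC24B held in 8 of the 17 alternatives.

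**Figure D2:**
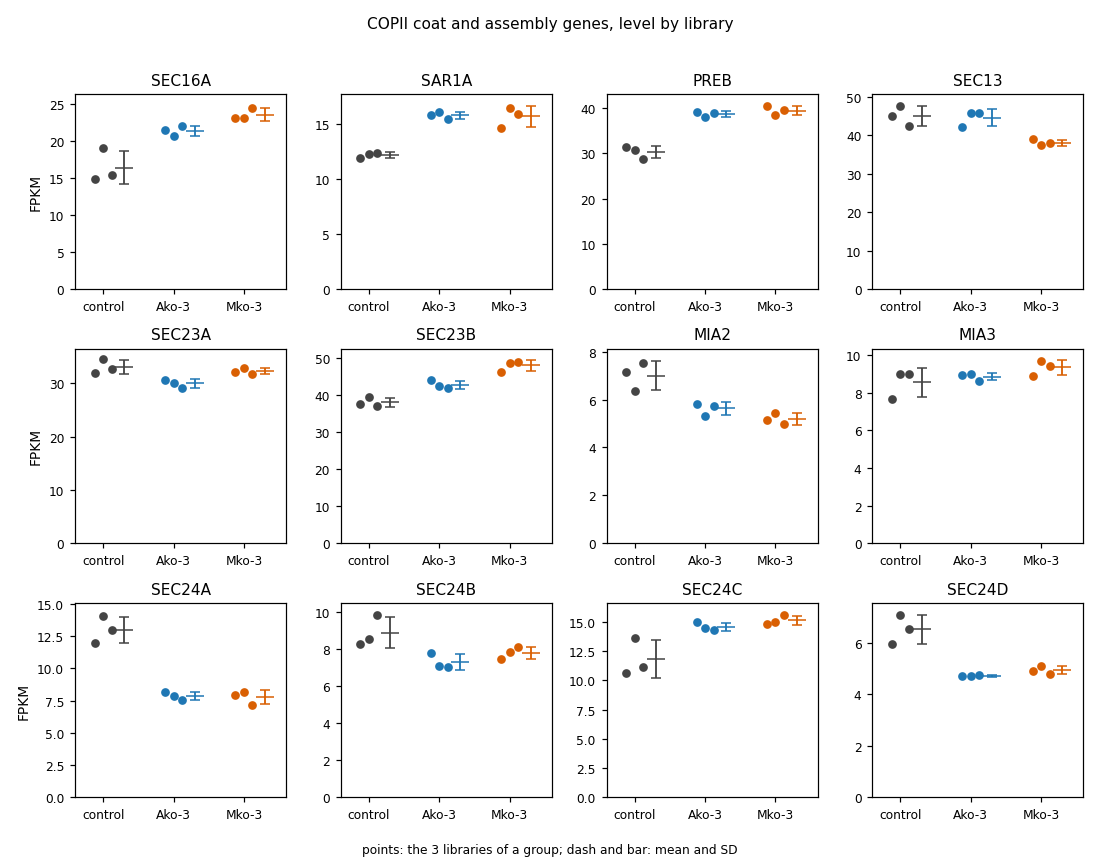
FPKM (y axis) of 12 COPII coat and assembly genes in the 3 libraries of each group, with the mean and SD beside the points. SEC16A, SAR1A, PREB, SEC23B and SEC24C are higher in both knockouts, SEC24A, SEC24D and MIA2 are lower, and MIA3 overlaps between all groups.

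As FPKM allow for gene length, the paralogs can be set against each other within a library. Their order rests on the deposited length of each gene, and which transcripts were expressed was not tested. SEC23A, for example, had more counts than SEC23B in control cells (5134 and 2904 on average) but lower FPKM, at lengths of 8945 and 4385 bases. In control cells SEC24A was the largest SEC24 with 32.4 ± 0.31% (SD, n = 3) of the summed FPKM, ahead of SEC24C with 29.2 ± 2.06%, and these did not overlap (32.6, 32.5 and 32.0% against 28.7, 31.5 and 27.5%). In Ako-3 cells SEC24C took 42.0, 42.4 and 42.5% and SEC24A 23.0, 23.1 and 22.5%, and in Mko-3 cells SEC24C took 42.2, 41.5 and 43.7% and SEC24A 22.7, 22.6 and 20.1%, so the order was exchanged in every knockout library. SEC24D fell from 16.2 ± 0.088% to 13.7 ± 0.485% and 13.9 ± 0.341%, and SEC24B overlapped between the groups at 22.2 ± 2.33%, 21.2 ± 0.593% and 21.9 ± 0.785%. The summed SEC24 FPKM went from 40.2 ± 3.24 in control to 34.5 ± 1.02 in Ako-3 and 35.6 ± 0.477 in Mko-3 cells, and did not overlap with control.

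Within the SEC23 pair the share of SEC23B was 54.1, 53.3 and 53.3% in control, 58.9, 58.4 and 59.1% in Ako-3 and 59.1, 59.7 and 60.6% in Mko-3 cells. It was larger in both knockouts than in any control library. For shares an exact permutation test was used, two-sided, which with 3 against 3 libraries cannot go below p = 0.1. This smallest value was reached in 29 of the 51 share comparisons over 7 families, with an adjusted p of 0.176 (Benjamini-Hochberg), so that no share passed 0.05. In families of a single pair each share mirrors the other, so their tests are not separate results and enter these counts for both genes.

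**Figure D3:**
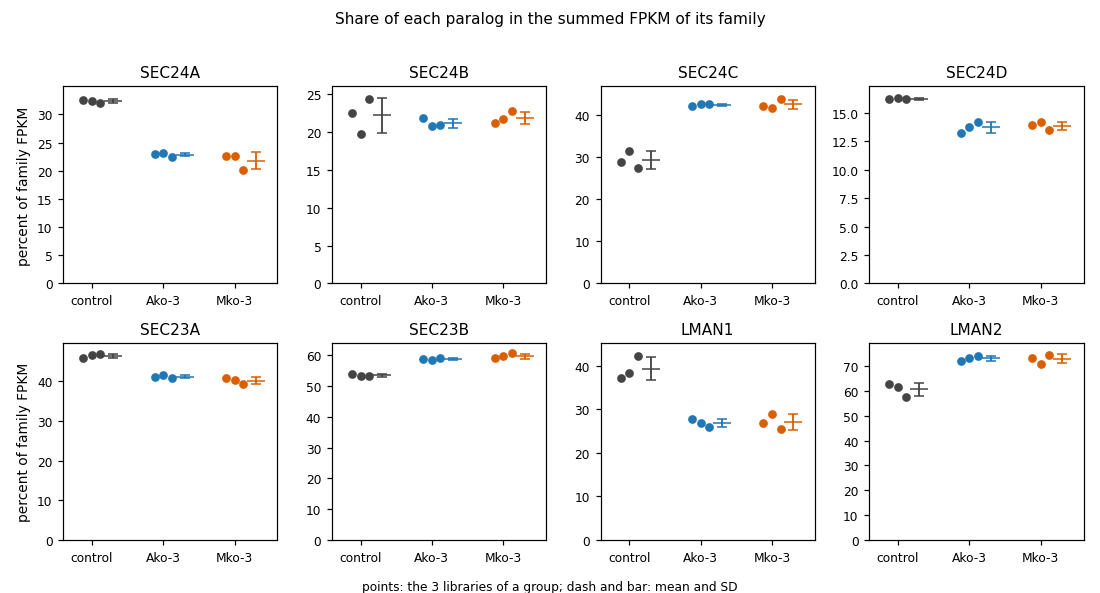
Share of each paralog in the summed FPKM of its family (y axis, percent) in the 3 libraries of each group, with the mean and SD. SEC24A leads SEC24C in the control libraries and SEC24C leads SEC24A in all knockout libraries, and the mean share of LMAN1 is 39.3% in control, 26.9% in Ako-3 and 27.1% in Mko-3 cells.

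SEC13, a protein of the outer cage which is also a nuclear pore component, was 248, 262 and 234 CPM in control and 233, 254 and 252 CPM in Ako-3 cells, which overlapped, and 214, 206 and 208 CPM in Mko-3 cells, below both other groups. The log2 fold change was -0.017 ± 0.063, adjusted p = 0.84 in Ako-3 and -0.25 ± 0.061, adjusted p = 0.0014 in Mko-3 cells by edgeR. Its partner SEC31A was lower in Ako-3 cells (-0.21 ± 0.065, adjusted p = 0.011 by edgeR) and did not pass in Mko-3 cells (-0.13 ± 0.062, adjusted p = 0.077). SEC31A overlaps THAP9-AS1 by 7952 bases on the same strand and THAP9 by 483 bases on the opposite strand, with 271 and 99.1 counts on average against 4489 for SEC31A. How far reads of these overlaps enter its count was not tested.

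MIA2 and MIA3 encode TANGO1 family proteins, which organise exit sites for bulky cargo such as collagen and lipoproteins. MIA2 was 76.0, 67.4 and 80.4 CPM in control, 62.2, 57.0 and 61.2 CPM in Ako-3 and 54.7, 58.1 and 52.6 CPM in Mko-3 cells, and fell in both (log2 fold change -0.32 ± 0.078, adjusted p = 0.0018 and -0.45 ± 0.078, adjusted p = 5e-05 by edgeR). MIA3 overlapped between the groups at 88.0 ± 8.05, 91.4 ± 2.16 and 96.1 ± 4.22 CPM, and did not pass. MIA2 was thus 48.3, 41.3 and 45.6% of the summed MIA FPKM in the control libraries, 39.5, 37.1 and 39.9% in Ako-3 and 36.6, 35.9 and 34.4% in Mko-3 cells, with no overlap between a knockout and control. TFG, which links exit sites to the next compartment, passed in neither knockout (0.037 ± 0.061 in Ako-3 and -0.13 ± 0.061 in Mko-3 cells).

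Of the 13 cargo receptors, 6 passed as higher and 3 as lower in Ako-3 cells, and 5 as higher and 2 as lower in Mko-3 cells. This is 69.2% and 53.8%, beside 49.9% and 54.0% of all genes, so that the share in Mko-3 cells was at the level of all genes. The lectins LMAN1 and LMAN2 moved apart. LMAN1, known as ERGIC-53, carries glycoproteins such as clotting factors V and VIII together with MCFD2. It stood at 352, 350.5 and 373 CPM in control, 249, 247 and 229.9 CPM in Ako-3 and 246, 259 and 242 CPM in Mko-3 cells. The knockouts overlapped each other and were far from control, with a fall of 32.9% in Ako-3 (log2 fold change -0.58 ± 0.061, adjusted p = 1.6e-07 by edgeR) and 31.2% in Mko-3 cells (-0.54 ± 0.059, adjusted p = 1.3e-07). MCFD2 passed in neither knockout: its CPM was 237, 238 and 249 in control, 262, 249.8 and 238 in Ako-3 and 243, 248 and 235 in Mko-3 cells, with log2 fold changes of 0.042 ± 0.061 and -0.007 ± 0.058. MCFD2 overlaps TTC7A by 25699 bases on the opposite strand, with 852.6 counts on average for TTC7A against 4221 for MCFD2. What this does to the MCFD2 count was not tested.

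LMAN2, or VIP36, another lectin for high-mannose glycoproteins, was 207, 195 and 177 CPM in control, 224, 235 and 229 CPM in Ako-3 and 233, 220.2 and 245 CPM in Mko-3 cells. It rose in both (log2 fold change 0.24 ± 0.064, adjusted p = 0.0039 and 0.26 ± 0.067, adjusted p = 0.0024 by edgeR), and the share of LMAN1 in the summed FPKM of the pair fell from 39.3 ± 2.63% to 26.9 ± 1.01% and 27.1 ± 1.77%. Their sum overlapped between the groups, at 133 ± 4.75 FPKM in control, 131 ± 2.25 in Ako-3 and 134 ± 4.51 in Mko-3 cells.

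The ERGIC proteins cycle between the ER and the intermediate compartment. ERGIC2 was 15.8, 20.2 and 18.9 CPM in control, 29.2, 24.7 and 24.6 CPM in Ako-3 and 24.5, 27.9 and 26.0 CPM in Mko-3 cells, and rose by 42.6% (log2 fold change 0.51 ± 0.11, adjusted p = 0.00054 by edgeR) and 42.2% (0.51 ± 0.10, adjusted p = 0.00032). This was the largest rise of any member in Ako-3 cells, in the least expressed cargo receptor. ERGIC3 rose by 19.8% in Ako-3 and 12.1% in Mko-3 cells (edgeR adjusted p = 0.0012 and 0.025), and ERGIC1 passed in neither (-0.029 ± 0.06 and 0.085 ± 0.059).

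The p24 proteins, named TMED, form complexes that carry GPI-anchored and other secreted proteins and bind both coats. TMED2 was 366, 379 and 369 CPM in control, 439.9, 435 and 395 CPM in Ako-3 and 544, 569.9 and 552 CPM in Mko-3 cells. The 3 groups did not overlap and Mko-3 was highest, with a rise of 48.4% (log2 fold change 0.57 ± 0.056, adjusted p = 3.1e-08 by edgeR), the largest of any member in that knockout, beside 13.3% in Ako-3 cells (0.18 ± 0.06, adjusted p = 0.017). TMED9 rose in both, by 12.7% and 15.2% (edgeR adjusted p = 0.022 and 0.008), and TMED10 rose by 12.8% in Ako-3 cells (0.17 ± 0.06, adjusted p = 0.021 by edgeR) and did not pass in Mko-3 cells (0.13 ± 0.06, adjusted p = 0.075). TMED3 went the other way in Ako-3 cells, where it was 99.4, 89.8 and 91.7 CPM against 116, 109.6 and 102 CPM in control (-0.23 ± 0.069, adjusted p = 0.0088 by edgeR), and it was 119, 113 and 126 CPM in Mko-3 cells, which overlapped with control (0.12 ± 0.068, adjusted p = 0.15). The Ako-3 rises of TMED2 and TMED10 passed in 12 of the 17 alternatives each, and that of TMED9 in 11. These rises did not pass with total counts only, upper quartile factors or the replicate block.

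The KDEL receptors bring back chaperones that escape the ER. KDELR1 was 306, 299.7 and 288 CPM in control, 317, 321 and 333 CPM in Ako-3 and 287, 267 and 270.3 CPM in Mko-3 cells, and passed in neither knockout (log2 fold change 0.11 ± 0.059, adjusted p = 0.12 and -0.13 ± 0.059, adjusted p = 0.075 by edgeR). KDELR2 was 517, 533 and 513 CPM in control, 507, 503 and 485 CPM in Ako-3 and 454, 451 and 435 CPM in Mko-3 cells, and fell in Mko-3 cells alone (-0.23 ± 0.056, adjusted p = 0.0013 by edgeR). KDELR2 overlaps DAGLB by 38238 bases on the same strand, with 380.6 counts on average for DAGLB against 8440 for KDELR2. What this overlap does to the KDELR2 count was not tested. The summed KDELR FPKM was 288 ± 6.22 in control, 288 ± 1.18 in Ako-3 and 261 ± 4.61 in Mko-3 cells.

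KDELR3, the least expressed of the 3 receptors, was 54.3, 54.3 and 53.7 CPM in control, 48.3, 43.7 and 40.8 CPM in Ako-3 and 53.8, 58.1 and 59.4 CPM in Mko-3 cells. It fell in Ako-3 cells (-0.30 ± 0.078, adjusted p = 0.0033 by edgeR) and did not pass in Mko-3 cells (0.067 ± 0.073, adjusted p = 0.46). The last 8 bases of KDELR3 overlap DDX17 on the opposite strand, whose own log2 fold change was 0.16, adjusted p = 0.042 in Ako-3 and 0.20, adjusted p = 0.01 in Mko-3 cells by edgeR.

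**Figure D4:**
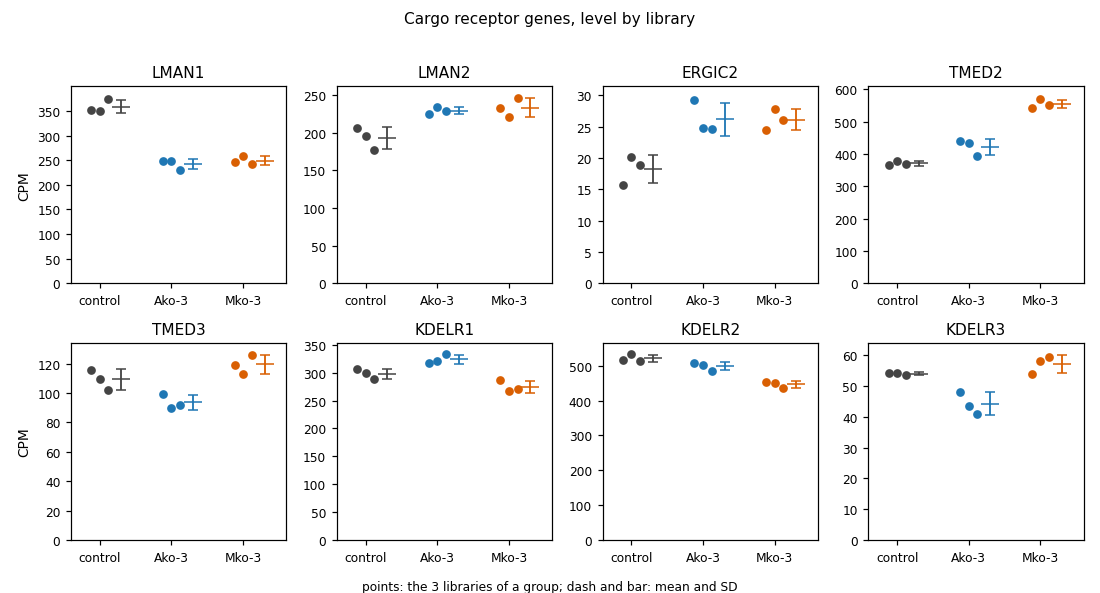
CPM (y axis) of 8 cargo receptor genes in the 3 libraries of each group, with the mean and SD. LMAN1 is lower and LMAN2 and ERGIC2 are higher in both knockouts, TMED2 is highest in Mko-3 cells, and KDELR3 and TMED3 are lowest in Ako-3 cells.

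The SNARE BET1 was 32.5, 31.7 and 34.5 CPM in control, 26.5, 29.1 and 23.5 CPM in Ako-3 and 28.7, 26.3 and 26.3 CPM in Mko-3 cells. It fell in both knockouts (log2 fold change -0.33 ± 0.092, adjusted p = 0.0057 and -0.29 ± 0.087, adjusted p = 0.0071 by edgeR). SEC22B, which pairs with it on COPII carriers, was 84.5, 93.9 and 93.1 CPM in control, 85.9, 80.3 and 79.3 CPM in Ako-3 and 92.8, 98.5 and 89.4 CPM in Mko-3 cells and passed in neither knockout (-0.15 ± 0.07, adjusted p = 0.075 and 0.039 ± 0.069, adjusted p = 0.66). The value of SEC22B is uncertain, since the genome holds close copies of it that could share reads; the 3 copies in the table had at most 15.8 counts on average against 1527 for SEC22B.

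No subunit of the COPI coat passed as higher in either knockout, under any of the scalings tried. In Ako-3 cells 4 of the 8 passed as lower and in Mko-3 cells 3 did, beside 24.4% and 27.1% of all genes that were lower. Counted in either direction, 49.9% and 54.0% of all genes passed, so the share of COPI genes that passed was near that of all genes in Ako-3 cells and below it in Mko-3 cells, at 37.5%. COPA, the alpha subunit that binds the retrieval signals of cargo, was 382, 397 and 415 CPM in control, 314, 309 and 316 CPM in Ako-3 and 328, 317 and 331 CPM in Mko-3 cells, and fell by 21.8% (log2 fold change -0.35 ± 0.059, adjusted p = 4.6e-05 by edgeR) and 19.0% (-0.30 ± 0.058, adjusted p = 0.00015). COPB1, the beta subunit of the inner layer, was 171, 179 and 178 CPM in control, 131, 127 and 125 CPM in Ako-3 and 146, 145 and 141 CPM in Mko-3 cells. All 3 groups of COPB1 were apart, with Ako-3 lowest at a fall of 27.9% (-0.47 ± 0.061, adjusted p = 2.2e-06 by edgeR) and Mko-3 at 18.8% (-0.30 ± 0.06, adjusted p = 0.00023). COPA overlaps NCSTN on the opposite strand by 129 bases, and the log2 fold change of NCSTN was above 0 (0.082, adjusted p = 0.3 in Ako-3 and 0.19, adjusted p = 0.015 in Mko-3 cells by edgeR).

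COPZ1, the zeta subunit, was 215, 209 and 209.9 CPM in control, 191, 198 and 188 CPM in Ako-3 and 185, 184 and 182 CPM in Mko-3 cells, and fell in both (-0.14 ± 0.059, adjusted p = 0.049 and -0.21 ± 0.058, adjusted p = 0.004 by edgeR), in Ako-3 cells at the edge of the threshold and in 7 of the 17 alternatives. ARCN1, the delta subunit, passed in Ako-3 cells (-0.18 ± 0.064, adjusted p = 0.022 by edgeR) and not in Mko-3 cells (-0.10 ± 0.064, adjusted p = 0.19). The other subunits COPB2, COPE, COPG1 and COPG2 passed in neither knockout, with log2 fold changes from -0.10 to 0.062 in Ako-3 and from -0.11 to 0.0081 in Mko-3 cells. COPB2 overlaps MRPS22 by 1624 bases on the opposite strand, with 504.1 counts on average for MRPS22 against 3689 for COPB2. What this does to the COPB2 count was not tested.

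COPG1 and COPG2 are the alternative gamma subunits. COPG1 gave 84.2 ± 0.768% of their summed FPKM in control, 85.7 ± 1.09% in Ako-3 and 83.1 ± 1.35% in Mko-3 cells, and both knockouts overlapped with control. COPG2 overlaps MEST on the opposite strand by 228 bases, and MEST was higher in both knockouts (0.33, adjusted p = 0.0015 and 0.51, adjusted p = 1.6e-05 by edgeR). Its part in the COPG2 value was not tested.

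**Figure D5:**
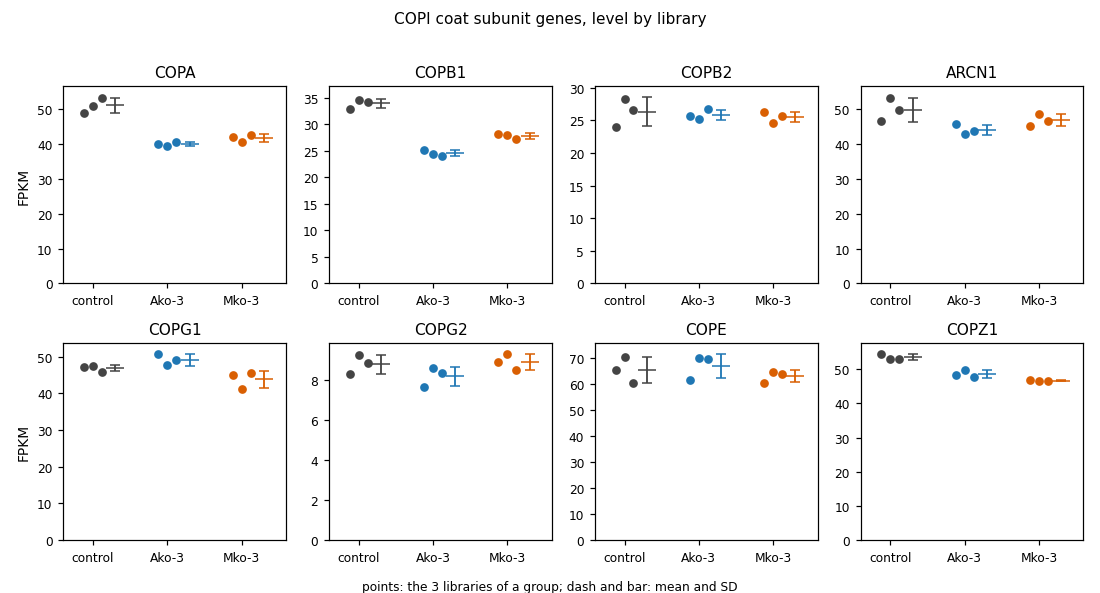
FPKM (y axis) of the 8 COPI subunit genes in the 3 libraries of each group, with the mean and SD. COPA and COPB1 are lower in every knockout library than in every control library, while COPB2 and COPE overlap between the groups.

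The direct comparison of the knockouts does not use the control libraries. Of the 37 tested members 9 were higher and 6 were lower in Mko-3 than in Ako-3 cells, which is 40.5% beside 41.6% of all genes, with 21.1% higher and 20.6% lower. The median was 0.035, beside 0.0048 over all genes. The largest differences were in cargo receptors. TMED2 was 31.0% higher in Mko-3 cells (log2 fold change 0.39 ± 0.039, adjusted p = 1.1e-13 by edgeR), KDELR3 28.9% (0.37 ± 0.065, adjusted p = 2.9e-06) and TMED3 27.4% (0.35 ± 0.052, adjusted p = 3.4e-08). In each of these genes the Mko-3 libraries were all above the Ako-3 libraries, and the difference passed in all 17 alternatives. KDELR1 was 15.2% lower in Mko-3 cells (-0.24 ± 0.041, adjusted p = 1.3e-06) and KDELR2 10.5% lower (-0.16 ± 0.038, adjusted p = 0.00034), so that among the KDEL receptors KDELR3 differed in the opposite direction to the other two. KDELR3 took 8.54, 7.77 and 7.28% of the summed KDELR FPKM in Ako-3 and 10.4, 11.5 and 11.8% in Mko-3 cells.

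In the COPII coat SEC13 was lower in Mko-3 than in Ako-3 cells (-0.24 ± 0.043, adjusted p = 4.6e-06 by edgeR), as was TFG (-0.16 ± 0.045, adjusted p = 0.0018), and SEC23B was higher (0.16 ± 0.043, adjusted p = 0.0018). SEC24A, SEC24B, SEC24C and SEC24D did not pass, with differences from -0.026 to 0.089. For LMAN1 the difference was 0.036 ± 0.043 and for ERGIC2 -0.0028 ± 0.083, neither of which passed. SEC22B was higher in Mko-3 cells (0.19 ± 0.053, adjusted p = 0.0022 by edgeR). Of the members that had passed in 1 knockout alone, SEC23A was higher in Mko-3 cells at the edge of the threshold (0.10 ± 0.041, adjusted p = 0.042, in 5 of the 17 alternatives), and SEC31A (0.077 ± 0.042), TMED10 (-0.044 ± 0.043) and ARCN1 (0.083 ± 0.044) did not pass. In the COPI coat COPB1 was higher (0.17 ± 0.047, adjusted p = 0.0017) and COPG1 lower (-0.17 ± 0.044, adjusted p = 0.00098).

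Beside the members, 81 other genes of ER to Golgi transport were listed by function, and 78 were tested. In Ako-3 cells 21 of these passed as higher and 22 as lower, and in Mko-3 cells 25 passed in each direction, which is 55.1% and 64.1% beside 49.9% and 54.0% of all genes. Their median log2 fold changes were -0.061 and -0.0024. Between the knockouts 21 were higher and 10 lower in Mko-3 cells, or 39.7% beside 41.6% of all genes. Of the genes tied to export of lipoproteins, SURF4, the receptor that packs apolipoprotein B, was 499, 561 and 465 CPM in control, 605, 600.1 and 632 CPM in Ako-3 and 642, 638 and 644 CPM in Mko-3 cells. It rose by 19.8% (0.26 ± 0.066, adjusted p = 0.0025 by edgeR) and 25.1% (0.32 ± 0.064, adjusted p = 0.00022).

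SAR1B, the GTPase whose loss causes chylomicron retention disease, was 62.8, 63.1 and 68.4 CPM in control, 55.8, 56.6 and 54.1 CPM in Ako-3 and 50.2, 53.9 and 51.6 CPM in Mko-3 cells and fell in both (-0.23 ± 0.072, adjusted p = 0.011 and -0.33 ± 0.073, adjusted p = 0.00062 by edgeR), opposite to its paralog SAR1A. The Ako-3 call was lost without control replicate 3 (-0.19, edgeR adjusted p = 0.057) and without Ako-3 replicate 3 (-0.21, edgeR adjusted p = 0.061). SAR1B and SEC24A lie head to head on chromosome 5 and overlap by 483 bases on opposite strands, and both fell. How far reads of that overlap enter either count was not tested. CIDEB, a lipid droplet protein named in VLDL transport, had 0 counts in all libraries. It overlaps LTB4R2 and NOP9 in the annotation, which had 54.2 and 385 counts on average, and whether reads of the overlap were left out of the count was not tested.

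Of the pathway genes, SEC31B, the minor paralog of SEC31A, passed both thresholds, with 5.11, 5.09 and 3.95 CPM in control, 2.26, 1.43 and 2.20 CPM in Ako-3 and 2.61, 1.26 and 2.29 CPM in Mko-3 cells (log2 fold change -1.28 ± 0.23, adjusted p = 0.0001 and -1.21 ± 0.24, adjusted p = 0.00025 by edgeR). Without Mko-3 replicate 2 the value in Mko-3 cells was -0.94. Between the knockouts, TRAPPC6A, a subunit of the TRAPP tether, was lower in Mko-3 cells (-0.78 ± 0.081, adjusted p = 3.9e-13 by edgeR), where the libraries ranged from 18.5 to 21.9 CPM against 32.7, 36.0 and 34.9 CPM in Ako-3 cells. The p24 gene TMED7, a partner of TMED2, was higher in Mko-3 cells (0.50 ± 0.11, adjusted p = 0.014 by edgeR), at 164, 191 and 152 CPM against 129, 123 and 106 CPM in Ako-3 cells. Without Ako-3 replicate 2 this call was lost (0.52, edgeR adjusted p = 0.051). Against control, TMED7 was lower in Ako-3 cells (-0.24, adjusted p = 0.0093 by edgeR) and higher in Mko-3 cells (0.26, adjusted p = 0.0052). Each of these 2 calls was lost when a single library was left out (edgeR adjusted p = 0.11 in Ako-3 and 0.067 in Mko-3 cells).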

How the data were processed

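RNA sequencing of poly(A) RNA was analysed in 3 libraries each of Huh-7 control, Ako-3 and Mko-3 cells, with the groups taken from the labels. Alignment by the authors used HISAT2 (2.0.5) on hg38, and counting on genes was done with featureCounts (1.5.0-p3), as the submitters' processing notes give these versions. The counts per gene were deposited without normalization. The authors also deposited FPKM values, which divide the counts by gene length and a library size. The library sizes behind these values are not the plain total counts, and they follow the TMM-scaled sizes closely. The second strand was made with dTTP, so the libraries are taken to carry no strand mark.

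From the counts, each pair of groups was fitted with edgeR 4.0.16 in R 4.3.3 (TMM factors, robust quasi-likelihood F test, genes kept by filterByExpr with 10 as the lowest count), with Benjamini-Hochberg adjustment over all genes tested. The thresholds were an adjusted p of 0.05, alone or with an absolute log2 fold change of 1. CPM values use the TMM factors over all 9 libraries. Total counts per library were 14638727 to 20179760. Alternatives were DESeq2 1.42.0, limma 3.58.1 on log2 FPKM, other scalings and filters, a replicate block and leaving out each library. The study's DESeq2 is thus an alternative here.

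The members and lists were chosen with earlier results of these data known. Named members were the 3 with the largest change in each role and comparison, the families of paralogs, and the highest and lowest in each role. SAR1A, PREB, SEC31A, ERGIC1, ERGIC3, TMED9, TMED10, MCFD2 and COPB2, and among other pathway genes ARFGAP1, NAPB and LMAN2L, were added after their values were seen. Promoters came from RefSeq (GRCh38.p14), and sites from GENCODE release 44.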

Additional observations from a re-analysis of the deposited data

Results flagged for a closer look

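The knockouts differed from each other, by edgeR's direct test at an adjusted p of at most 0.05, in 15 of the 37 tested members. This is 40.5%, near the 41.6% among all genes, so the count is not particular to this machinery. In these members the changes against the shared control were not the same. The log2 differences, Mko-3 minus Ako-3, were 0.39 for TMED2, 0.37 for KDELR3, 0.35 for TMED3, 0.19 for SEC22B, 0.17 for COPB1, 0.16 for SEC23B, 0.13 for SEC16A, 0.11 for ERGIC1 and 0.10 for SEC23A. They were -0.24 for KDELR1, -0.24 for SEC13, -0.17 for COPG1, -0.16 for TFG, -0.16 for KDELR2 and -0.095 for ERGIC3. Against control, TMED3 and KDELR3 were lower in Ako-3 cells and had positive values that did not pass in Mko-3 cells, and KDELR1 had values on opposite sides of 0 that passed in neither. SEC23A, SEC16A, ERGIC1 and ERGIC3 lost this call without single libraries: SEC23A without Ako-3 replicate 2 or 3 or any 1 of the Mko-3 libraries (edgeR adjusted p from 0.052 to 0.16), SEC16A without Ako-3 replicate 2 or Mko-3 replicate 3 (edgeR adjusted p from 0.062 to 0.079), ERGIC1 without Ako-3 replicate 3, Mko-3 replicate 1 or Mko-3 replicate 3 (edgeR adjusted p from 0.053 to 0.15), and ERGIC3 without Ako-3 replicate 2, Ako-3 replicate 3, Mko-3 replicate 1 or Mko-3 replicate 2 (edgeR adjusted p from 0.11 to 0.19).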

How the results depend on the processing

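No member passed both thresholds under any alternative, and no called value changed sign. Of the single-gene values, 2142 kept their side of the threshold, 113 lost it and 34 gained it, and 354 differences in paralog shares moved by less than the spread between replicates while 3 moved by more. In Ako-3 cells the 11 members higher became 6 with total counts only, 7 with upper quartile factors and 7 with the replicate block, and 7 to 11 with 1 library left out, while the 14 lower became 8 to 14 with 1 library left out. In Mko-3 cells the counts stayed within 1.5 times. The median of the members in Ako-3 cells was -0.12 with total counts only (all genes -0.10), -0.078 with upper quartile factors, 0.00020 with no filter on low counts, and -0.024 to 0.0096 with 1 library left out. In Mko-3 cells it was -0.012 with DESeq2, -0.11 with total counts only, -0.11 with upper quartile factors, 0.0059 with no filter, and -0.064 to -0.0029 with 1 library left out. Between the knockouts it was 0.060 with total counts only. The cause was not tested.

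Libraries with the same replicate number did not deviate together (correlation from -0.096 to 0.078). The labels name no pairing, and these correlations cannot show whether replicates of the same number were handled together. The replicate block gave 7 higher and 11 lower in Ako-3 cells. It left the counts in Mko-3 cells and between the knockouts as they were. At 3 to 11 counts per library SEC16B did not pass the filter.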

Other observations

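Among the other pathway genes, 3 that were picked after their values were seen differed in both knockouts in all 17 alternatives. ARFGAP1, which stimulates GTP hydrolysis by ARF1 on COPI carriers, was 264, 258 and 222 CPM in control, 135, 141 and 144 CPM in Ako-3 and 143, 126 and 130.1 CPM in Mko-3 cells (log2 fold change -0.83, adjusted p = 5.8e-09 and -0.91, adjusted p = 1.2e-09 by edgeR), and the lowest control library was above every knockout library. NAPB, a SNAP protein that helps NSF take SNARE complexes apart, was 37.2, 36.3 and 40.9 CPM in control, 23.1, 21.8 and 21.9 CPM in Ako-3 and from 19.9 to 20.8 CPM in Mko-3 cells (-0.79, adjusted p = 2.9e-07 and -0.93, adjusted p = 2e-08 by edgeR). LMAN2L, a lectin related to LMAN2, was 43.7, 47.1 and 44.4 CPM in control, 63.9, 67.9 and 65.6 CPM in Ako-3 and 66.6, 69.4 and 69.1 CPM in Mko-3 cells (0.54, adjusted p = 3.8e-06 and 0.59, adjusted p = 5.9e-07 by edgeR). Like LMAN2 it was higher in both knockouts, while LMAN1 was lower. Between the knockouts none of the 3 passed.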
